A study of Drosophila melanogaster with 2 samples.

Results

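A ChIP-seq experiment on Dmrt99B gave 7838 peak summits on a list thresholded on how well peaks recur between replicates. Of these, 237 (3.02%, 95% Wilson interval 2.67% to 3.43%) were counted as exon summits. They lay in an exon and more than 500 bp from any annotated start of a protein-coding or non-coding RNA gene. They were chosen by position alone, as summits inside an annotated exon of any gene other than a transposable element. Each summit was given the first class that applied in the order coding sequence, 5′ UTR, 3′ UTR and non-coding RNA exon, and these classes held 18, 42, 74 and 103 summits. No summit fell in a pseudogene exon. The other 7601 summits comprised 3711 in introns, 1608 in intergenic sequence and 2282 in promoters, meaning within 500 bp of a start. Annotated starts of microRNA genes were among the starts counted. The study had 1 group, whole Drosophila melanogaster embryos of mixed sex aged 6 to 16 hours, with 2 biological replicates numbered 3 and 4 and no second genotype or treatment. All embryos came from a transgenic line carrying Dmrt99B with a C-terminal eGFP tag. Binding in a few cells and weaker binding in many cells cannot be told apart in whole embryos. The number of reads behind each replicate is unknown, and every interval below covers counting error over summits only.

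Dmrt99B is a transcription factor with a DM domain, the zinc-binding module with which doublesex and its relatives contact DNA. Transcription factor peaks are usually found at promoters and at enhancers in introns and intergenic sequence. Exons differ from these regions in base composition and are read by the transcription machinery as well as by regulatory proteins. Many UTR exons and long non-coding RNAs are exons in only some transcripts, so the same bases can be intron in another transcript.

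The following sequences are shown because they carry CAGTGTA, the 7-letter sequence that ranked first among the summits of this experiment in earlier results, at exon summits of each class in which it occurred. They are the matches at up to 3 summits of highest signal value in each class on X, 2L, 3L and 3R, and thus 7 of 14. Each runs 5′ to 3′ on the strand that reads CAGTGTA, is centred on the match nearest the summit, and has the match in capitals. They are from the RefSeq release 6 genome (dm6), and no coding summit had a match.
sog, 5′ UTR, chrX:15632929-15632957, plus strand: atgccgaaacgCAGTGTAgcagtgcaatc
Octalpha2R, 3′ UTR, chr3R:18804610-18804638, minus strand: catttacctttCAGTGTAcctcattccat
beat-Ic, 3′ UTR, chr2L:16040431-16040459, plus strand: ggaattgtgcaCAGTGTAcagcaagctga
CG10866, 3′ UTR, chr3L:3936080-3936108, plus strand: gttttttctttCAGTGTAtgtcaaacaaa
lncRNA:CR46035, non-coding RNA exon, chr3R:17704309-17704337, minus strand: agcttatgtttCAGTGTActgcctcgttt
lncRNA:CR43252, non-coding RNA exon, chr3R:6903525-6903553, plus strand: tagacttttttCAGTGTAtgtcctccatt
lncRNA:CR45018, non-coding RNA exon, chrX:13307539-13307567, plus strand: gtcttttctttCAGTGTAtgcgtttgctt

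Most of these matches were offset from the summit. They lay 86 bp from it at sog, 84 bp at Octalpha2R and 87 bp at both lncRNA:CR46035 and lncRNA:CR43252. At beat-Ic, lncRNA:CR45018 and CG10866 they lay 34, 35 and 28 bp away.

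A second set of sequences is shown because 4 of the 18 coding summits lay within 25 bp of an exon edge, where the intron next to the coding sequence is also inside the summit window. Each is in the sense of the gene, spans the exon edge and has the summit base at its exonic end, with the coding exon in capitals and the neighbouring intron in lower case, again from the RefSeq release 6 genome.
bif, upstream edge of the exon, 24 bp from the summit, chrX:11681713-11681742, plus strand: aacagATTTCACAGAACCGGCGACAATCAG
l(3)mbn, downstream edge, 19 bp, chr3L:6124797-6124826, minus strand: ACCAACCGGAAATGTACCCTgtaagtgata
CG10962, upstream edge, 19 bp, chrX:8973361-8973390, minus strand: aatcctgcagAGCATCAATCCCGGCTGGGT
CG13737, upstream edge, 19 bp, chr3L:13882629-13882658, plus strand: acatcaacagGCGACCGGCGAACAACATGG

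The 4 exon classes differed widely in how many summits they held per base. Coding sequence beyond promoters covered 18.7 Mb, or 16.1% of all bases beyond promoters, and held 0.324% of the summits there. This gave 0.963 summits per Mb (exact 95% Poisson interval 0.571 to 1.52). The 3′ UTRs held 12.4 per Mb (9.76 to 15.6) over 5.95 Mb. The 5′ UTRs held 51.7 per Mb (37.3 to 69.9) over 0.812 Mb, and non-coding RNA exons held 97.5 per Mb (79.6 to 118) over 1.06 Mb. Beside these, introns held 70.1 per Mb (67.9 to 72.4), intergenic sequence 44.1 (42.0 to 46.3), promoters 129.9 (124.6 to 135.4) and all sequence beyond promoters 47.9. Per base, summits were therefore scarce in coding sequence and 3′ UTRs, whose intervals lay below those of introns and intergenic sequence. The interval of 5′ UTRs overlapped that of intergenic sequence, and the interval of non-coding RNA exons lay above that of introns. Under the 500 bp rule these 2 classes were thus rare in number and not per base. Of their bases, 44.6% and 39.2% had a start within 1000 bp, against 23.5% of coding and 15.9% of 3′ UTR bases. Promoters defined by 1000 bp left 14 and 58 summits in these 2 classes, and densities were not computed there. The 0.170 Mb of pseudogene exons held 0 summits (exact interval 0 to 21.7 per Mb), and 3 counts over these bases, a common limit for a count of 0, would be 17.7 per Mb.

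**Figure D1:**
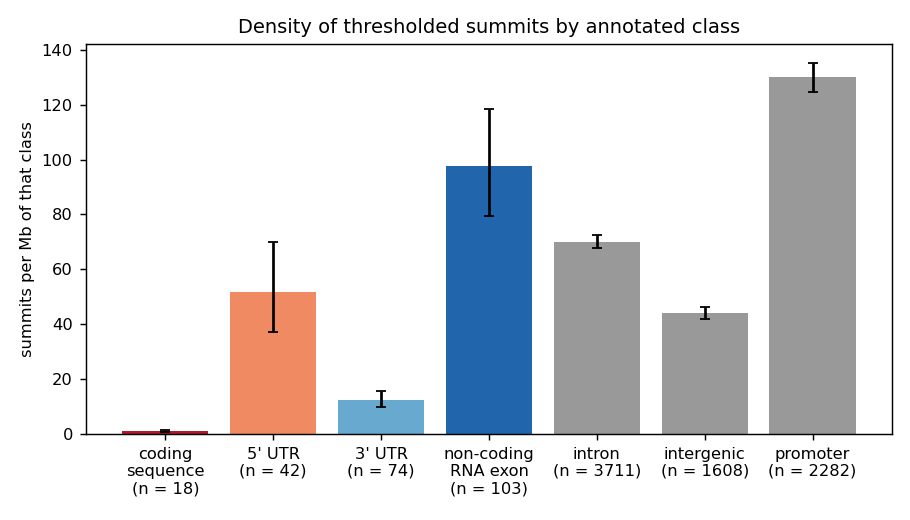
Summits per Mb of annotated sequence (vertical axis) for the exon classes and for introns, intergenic sequence and promoters, with bars for the density and lines for exact 95% Poisson intervals. Coding sequence stands lowest at 0.963 per Mb, and non-coding RNA exons (97.5 per Mb) stand between introns (70.1) and promoters (129.9).

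The strength of a peak was read from the authors' signal value, their own score for each peak, on a scale that is not stated. The median was 283 over the 237 exon summits (order-statistic 95% interval 259 to 328, range 170 to 8193), against 342 over the 7601 other summits (335 to 351). Those others include the promoter summits, and over intron and intergenic summits alone, which lay beyond promoters as the exon summits did, the median was 321 (314 to 328). The median of exon summits was thus below both of these intervals. Its own interval lay below that of all other summits but overlapped that of intron and intergenic summits. Within the exon classes the medians were 263 in coding sequence, 252 in 5′ UTRs, 267 in 3′ UTRs and 326 in non-coding RNA exons. Introns had a median of 330, intergenic sequence 303 and promoters 420. Of the exon summits, 97 (40.9%, Wilson interval 34.9% to 47.3%) were among the strongest 3919 of the list, which are 50% of all summits by construction and hold 46.6% of intron and intergenic summits. Among the strongest 783 were 15 exon summits (6.33%, 3.87% to 10.2%), against 9.99% of all summits and 6.69% of intron and intergenic summits. These 15 were 1 coding, 3 5′ UTR, 3 3′ UTR and 8 non-coding RNA summits. Median peak width was 424 bp over exon summits and 401 bp over the others.

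**Figure D2:**
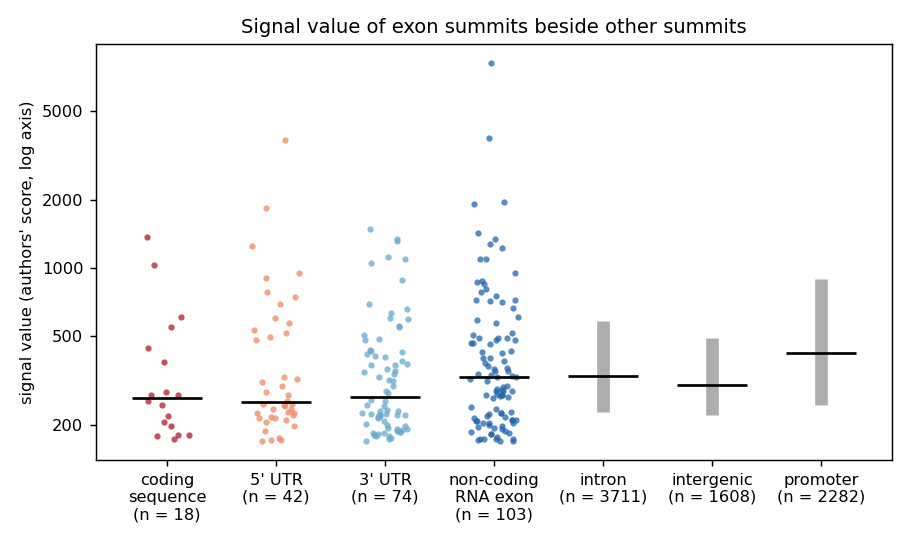
Signal value, the authors' score, on a log axis for every exon summit by class (points, with a black line at the median) and for introns, intergenic sequence and promoters (grey bars for the interquartile range, black lines for the median). The exon classes other than non-coding RNA exons have medians between 252 and 267, and single summits of each class reach above 1000.

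The 18 coding summits lay in 18 different genes. The strongest was in the last exon of otp, a homeobox transcription factor of the nervous system, with a signal value of 1368. It ranked 701 of the 30000 peaks of replicate 3 and 519 of those of replicate 4. The next was in Pde1c, which encodes a calmodulin-dependent phosphodiesterase, at chr2L:11816350-11816754 with a value of 1028. It ranked 1023 and 908 in replicates 3 and 4. These 2 were the coding summits with a value above 1000, and both replicates placed them among their strong peaks.

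Values of 381 to 603 were found at 4 further coding summits, in CG5895 (603, chr3L:16037054-16037261), bif, an actin-binding protein of photoreceptors (545), klar, which acts in transport of nuclei and lipid droplets (439), and l(3)mbn (381). The remaining 12 were weaker. They lay in bun, a TSC22-family transcription factor (282), CG10962 (272), HisRS, the histidyl-tRNA synthetase gene (271), Tim17b1, a subunit of the mitochondrial import machinery (255), CG31259 (246), Cht6, a chitinase (219), scrib, a scaffold of epithelial polarity (207), Sgs3, a glue protein of the larval salivary gland (197), CG43938 (181), Snx27, a sorting nexin (180), CG13737 (178) and btsz, a synaptotagmin-like protein (174). In 5 of the 18 the rank in replicate 4 lay beyond 7838, the length of the thresholded list, and the most distant was Snx27 at 10611. Replicate 3 placed 1 of the 18 beyond it, CG43938 at 7845. Taken from the 7838 strongest peaks of replicate 4 alone, that is without replicate 3, the number of coding summits was 11, and without replicate 4 it was 22.

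Coding summits often lay where intron was close or overlapped. Of the 18, 8 (44.4%, Wilson interval 24.6% to 66.3%) were intronic in another annotated transcript, against 12.8% of all coding bases beyond promoters. In 4 of these the other transcript was of the same gene alone or with a neighbour, as at bun, HisRS, Cht6 and btsz. The coding genes CG10962, Tim17b1, CG43938 and CG13737 were nested in introns of rdgA, mtd, ko and dysc. Within 25 bp of an exon edge were 4 summits (22.2%, 9.0% to 45.2%), those of bif, l(3)mbn, CG10962 and CG13737 printed above, against 8.74% of coding bases. Of the 18 peaks, 5 were exonic over their whole length, where 154 of all 237 exon peaks were. None covered a start, which the rule of 500 bp fixed in advance, as the widest coding peak was 424 bp.

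The 42 summits in 5′ UTRs lay mostly where another transcript has an intron. Of them 30 (71.4%, 56.4% to 82.8%) were intronic in another transcript, against 43.4% of 5′ UTR bases beyond promoters, and a start lay within 1000 bp of 28 (66.7%, 51.6% to 79.0%), against 44.6% of bases. The first exon of a transcript held 25 of them and an internal exon 16. The nearest start was that of the host gene for 39 of 42.

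The strongest 5′ UTR summit was in baz, which encodes the polarity protein Par-3, at chrX:17178462-17178961. Its signal value was 3702, and it ranked 64 in replicate 3 and 80 in replicate 4, with the nearest start 4544 bp away. A second baz summit, 1929 bp from the first and also in an internal exon, had a value of 513. The next strongest was in Raf, the MAP kinase kinase kinase of receptor tyrosine kinase signalling, at chrX:2296093-2296590. Its value was 1847, and it ranked 360 in replicate 3 and 329 in replicate 4. Both genes thus had peaks that stood near the same place in the order of each replicate.

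Signal values above 500 were also found in 5′ UTRs of Fbl6 (1254), eas, an ethanolamine kinase (954), cic, an HMG-box repressor that acts downstream of receptor tyrosine kinases (907), CG15247 (784), dos, an adaptor in the same signalling (742), Mef2, a MADS-box factor of muscle (693), Ask1, a stress-activated kinase (601), CG5966 (569) and Pdp1, a bZIP factor of the circadian clock (528). The other 30 summits had values between 170 and 493. Among their hosts were genes of secreted signals and receptors, namely sog, an inhibitor of BMP ligands (256), ths, an FGF ligand (248), and Octbeta2R, an octopamine receptor (477). Transcription factors and cofactors in this group were cbt (325), ush, a cofactor of GATA factors (321), Ssdp (248), sbb (244), Atf3 (235), Smox, the Smad of activin signalling (226), spen (221), gce, a juvenile hormone receptor (171), and EcR, the ecdysone receptor (170). The rest lay in firl (493), CAP, which held 2 (312 and 299), CG13003 (280), brwl (272), lbk (247), nyo (235), DPCoAC (228), drn (227), KrT95D (218), Stacl (215), DCP2, the mRNA decapping enzyme (214), RluA-1 (211), HisRS (207), Coq4 (197), CG4080 (188), Aps (175) and Nox, an NADPH oxidase (171). HisRS was the 1 gene with a summit in both a 5′ UTR and coding sequence, with values of 207 and 271.

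The 74 summits in 3′ UTRs were mostly in last exons, which held 56, or in single-exon transcripts, which held 17. Of the 74, 18 (24.3%, Wilson interval 16.0% to 35.2%) lay within 100 bp of the transcript end, against 20.0% of 3′ UTR bases, and 43 (58.1%, 46.7% to 68.7%) within 500 bp, against 59.6% of bases. Their placement along the 3′ UTR thus differed from that of the bases by less than the counting error. In an intron of another transcript lay 15 (20.3%, 12.7% to 30.8%), against 17.7% of bases. The whole peak was exonic for 59 of the 74. A start of some gene lay within 1000 bp of 12 (16.2%), against 15.9% of bases.

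The strongest of them was in stas at chrX:17624842-17625266, with a signal value of 1488 and ranks of 568 in replicate 3 and 575 in replicate 4. CG5984 followed with 1351 (chr3R:27246184-27246630, ranks 669 and 635 in replicates 3 and 4) and APC7, a subunit of the anaphase-promoting complex, with 1324 (chrX:6599309-6599689, ranks 732 and 566). These 3 were the 3′ UTR summits among the strongest 783 of the list. The next were CG33307 (1124), CG7872 (1099), NetB, a netrin that guides axons (1054), scf (885), Myd88, the adaptor of Toll signalling (691), CG14440 (655), CG4004 (629), Tctp (601), the octopamine receptor gene Octalpha2R (593), CG10357 (554), CG8206 (547) and CG12025 (501).

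The other 59 3′ UTR summits had values between 170 and 484. Over the whole class, 5 genes held more than 1 summit. CG1888 held 3 (356, 226 and 175), as did corto, which encodes a chromatin protein (297, 208 and 185). CG4004 held 2 (629 and 193), as did the F-box gene Ppa (403 and 336) and the calmodulin gene Cam (244 and 222). Signalling and cytoskeleton genes with 1 were Rac2 and Rap1, both small GTPases, ctp, a dynein light chain, chic, the fly profilin, Inx2, a gap junction protein, rst, a cell adhesion protein, beat-Ic, Hk, a potassium channel subunit, Pp2C1 and Cngl. Genes of transcription and RNA were Hr4, a nuclear receptor (480), bab2, TAF1B, Ssu72, a phosphatase of the RNA polymerase II tail, ps, a splicing factor (199), and Myc, whose 3′ UTR summit also lay in an exon of CG12535. Metabolic and other enzymes were Pbgs, Hex-A, a hexokinase, Sgsh and aay. The remaining hosts were REG, MESK2, tbc, 2mit, CG9837, CG34276, CG9166, CG17290, CG15546, CG9500, CG9107, CG9514, CG7778, CG1690, CG3308, CG43187, CG7378, CG7668, CG3168, CG5715, CG12831, CG10866, CG46304, CG5928, CG30158 and the overlapping genes CG13739 and CG13954, CG10570 and CG42502, and CG13510, CG13511 and CG42565. The X held 24 of the 74 3′ UTR summits (32.4%), 54 of all 237 exon summits (22.8%) and 20.1% of the whole list. In the other classes it held 5 of 18 coding summits (27.8%), 12 of 42 5′ UTR summits (28.6%) and 13 of 103 non-coding RNA summits (12.6%). Shares of bases by arm are not given beside these.

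Non-coding RNA exons held the most exon summits and the strongest of them. The summit in lncRNA:Vinr at chrX:12750771-12751700 had a signal value of 8193 and ranked 4 in the thresholded list, 4 in replicate 3 and 4 in replicate 4. It lay 539 bp from the nearest start, that of lncRNA:CR44619, and so only just outside the distance that defines a promoter. The same stretch of the X held 3 more exon summits, 1 in lncRNA:CR44619 (1232) and 2 in the 3′ UTR of CG4004 (629 and 193). The second strongest, in lncRNA:CR46035 (3792, chr3R:17704189-17704650), lay in an intron of osa, which encodes a subunit of a chromatin remodelling complex. It ranked 60 in replicate 3 and 69 in replicate 4, and its window holds the CAGTGTA match printed above.

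Of the 15 strongest, the others were in lncRNA:CR44363 (1967), lncRNA:CR44365 (1934), lncRNA:CR44628 (1430), lncRNA:CR43334 (1347, 864 and 846), lncRNA:CR43823 (1279), lncRNA:CR44331 (1102), lncRNA:CR45048 (1093), lncRNA:CR44868 (947), lncRNA:CR43252 (877) and lncRNA:CR45911 (805). The functions of most of these RNAs are not given in the annotation. Of RNAs with a given name, lncRNA:acal, known from dorsal closure, had a summit of 707, lncRNA:Hsromega, the heat-shock RNA, one of 421 and lncRNA:Irar one of 346. Antisense RNAs held 6 summits. Of these, 3 were in asRNA:CR44018 (428, 337 and 219), whose nearest protein-coding start was that of the homeobox gene hth. The others were in asRNA:CR45270 (607), asRNA:CR43957 (273), which was the 1 exon summit on chromosome 4, and asRNA:CR45520 (199). A further 42 long non-coding RNA hosts held 1 summit each, with values between 170 and 723, and were lncRNA:CR43704, lncRNA:CR44538, lncRNA:CR43459, lncRNA:CR45940, lncRNA:CR45707, lncRNA:CR45345, lncRNA:CR44831, lncRNA:CR43493, lncRNA:CR46094, lncRNA:CR46214, lncRNA:CR45994, lncRNA:CR45346, lncRNA:CR43928, lncRNA:CR46474, lncRNA:CR45793, lncRNA:CR44467, lncRNA:CR45267, lncRNA:CR45700, lncRNA:CR44779, lncRNA:CR45551, lncRNA:CR43974, lncRNA:CR44231, lncRNA:CR45276, lncRNA:CR44980, lncRNA:CR44501, lncRNA:CR44828, lncRNA:CR45450, lncRNA:CR44468, lncRNA:CR46004, lncRNA:CR46216, lncRNA:CR43983, lncRNA:CR43848, lncRNA:CR44415, lncRNA:CR46003, lncRNA:CR46259, lncRNA:CR43627, lncRNA:CR44901, lncRNA:CR45552, lncRNA:CR44662, lncRNA:CR43905, lncRNA:CR43626 and lncRNA:CR44744.

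A single-exon transcript held 70 of the 103 non-coding RNA summits, and 35 (34.0%, Wilson interval 25.6% to 43.6%) lay in an intron of another transcript, against 34.2% of non-coding RNA bases. For 28 of the 103 the intron belonged to another gene. In order of signal value these genes were osa, puc, RhoGAP92B, beat-Ib, Antp with CG46458, Dhit, nkd, InR, pdgy, CG14434, l(1)G0196, REPTOR, IP3K2, lbk, Hph, CG3655, Sarm, kis, ush, srp, mrj, Galphai, CG42750, jing and tkv. InR surrounded 2 of the 28, in lncRNA:CR44034 and lncRNA:Irar, as did CG14434 with the pair in lncRNA:CR45531 and IP3K2 with the pair in lncRNA:CR45018. Within 100 bp of the transcript end lay 37 (35.9%, 27.3% to 45.5%), against 16.9% of non-coding RNA bases, and within 500 bp 54 (52.4%, 42.9% to 61.8%), against 45.8%. The 37 include summits in 6 tRNA genes, which are 72 to 82 bp long and so lie wholly within 100 bp of their end. Others lay in RNAs little over 500 bp long, where the 500 bp rule leaves only bases near the end. In lncRNA:CR43704 (529 bp) the summit lay 505 bp from the start and 23 bp from the end. In lncRNA:CR44628 (551 bp) these distances were 522 and 28 bp. The bases compared were held to the same rule, and the part of RNA length in these shares was not tested. A start lay within 1000 bp of 45 (43.7%, 34.5% to 53.3%), against 39.2% of non-coding RNA bases.

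Small RNA genes held 10 of the 103. Their own starts were not used to define promoters, and each of the 10 lay within 500 bp of one. They were 6 tRNA genes, namely tRNA:Pro-TGG-1-2 (330), tRNA:Pro-TGG-1-1 (210), tRNA:iMet-CAT-1-2 (208), tRNA:Ser-AGA-2-4 (194), tRNA:Glu-CTC-2-1 (187) and tRNA:Glu-CTC-1-1 (176), the snRNA genes snRNA:U2:34ABb (477), snRNA:7SKa (329) and snRNA:U1:21D (271), and snoRNA:Psi28S-3342 (298). Such genes are short and, for tRNAs and some snRNAs, read by RNA polymerase III, and several have near-identical copies whose reads cannot be placed with certainty. With starts of every gene kind counted, 226 exon summits were left, of which 93 were in non-coding RNA exons.

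The gene with most exon summits was lncRNA:CR43334, which holds the gene of the bantam microRNA, a growth promoter that represses cell death. It spans 15466 bp on 3L from 628435 to 643900 and held 6 exon summits and 2 summits classed as promoter. The transcripts of this RNA start at 0, 0.035 and 11.3 kb along the gene. The promoter summit at 14.2 kb was classed so by starts inside mir-ban, at 13.8 kb, and not by a start of the host RNA. Along the gene from its start, the exon summits had signal values of 215, 227, 864, 1347, 588 and 846. The middle and last of them were therefore stronger than those next to the start. The strongest ranked 755 in replicate 3 and 469 in replicate 4, and the weakest 5853 and 14386. The summit of 846, at 640757, lay nearest to mir-ban, 1451 bp away, and was within 1043 bp of an internal start.

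**Figure D3:**
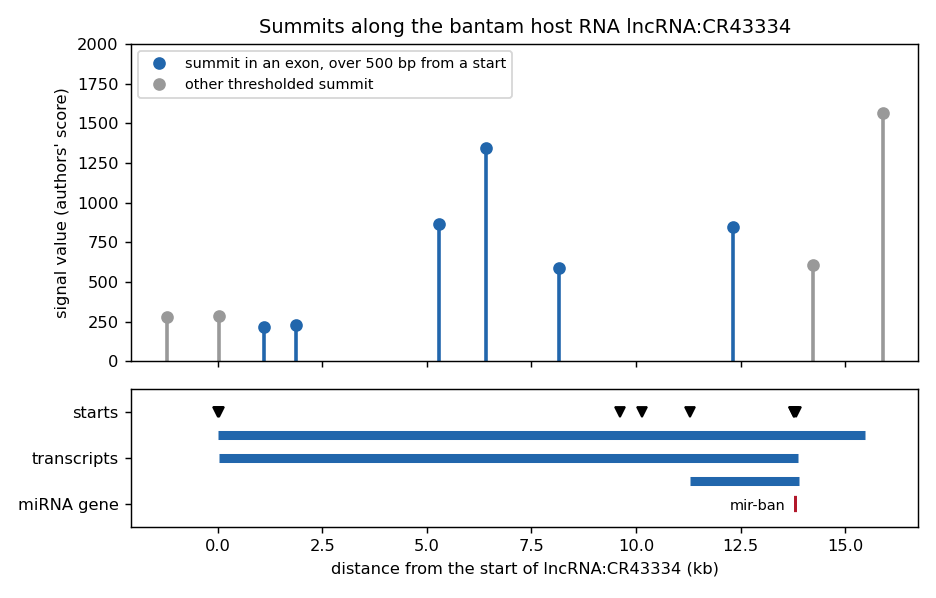
Summits along lncRNA:CR43334 by distance from the start of the gene in kb (horizontal axis) and signal value (vertical axis), with exon summits in blue, other summits in grey, and the annotated transcripts, start sites and mir-ban drawn below. The 6 exon summits lie between the summits classed as promoter at 0.04 and 14.2 kb, the latter by starts inside mir-ban. The strongest exon summit (1347) lies at 6.40 kb.

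In all, the 237 summits lay in 216 host genes, and 142 of these genes held no other summit of the list. Of protein-coding genes, 129 of 13945 (0.925%) held an exon summit, and of non-coding RNA genes 77 of 3261 (2.36%). The latter include microRNA genes such as mir-ban, too short to hold a summit over 500 bp from their own start. There were 17 genes with at least 2, which together held 43 summits. After lncRNA:CR43334 these were CG1888, corto, lncRNA:CR44603 (749, 717 and 463), asRNA:CR44018 and lncRNA:CR43650 (216, 195 and 185) with 3 each, and baz, CAP, HisRS, CG4004, Ppa, Cam, lncRNA:CR45531 (479 and 271), lncRNA:CR45018 (399 and 205), lncRNA:CR43126 (366 and 288), lncRNA:CR31044 (326 and 240) and lncRNA:CR46006 (204 and 183) with 2 each. Another summit of the list lay within 500 bp of 17 exon summits (7.17%), against 9.87% of all summits. All 17 lay 199 to 225 bp from it.

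Nearly all exon summits had a summit of each replicate nearby. Such a share was nearly fixed in advance, because the thresholded list was made from these same 2 replicates. A summit of each replicate's own list of 30000 peaks lay within 200 bp of 236 of the 237 (99.6%, Wilson interval 97.6% to 99.9%), against 99% of all summits. The exception was a summit in lncRNA:CR43650, with a value of 216 and no replicate 4 summit within that distance. The matching peak ranked beyond 7838 in replicate 3 for 17 exon summits (7.17%) and in replicate 4 for 48 (20.3%), where over all summits this held for 436 (5.56%) and 985 (12.6%). Replicate 4 therefore placed more exon summits low in its list than replicate 3 did, as it did over the whole list. The most distant ranks in replicate 4 were 26919 for lncRNA:CR45018 (signal value 205), 25796 for CG10866, 24522 for CG9107, 19258 for lncRNA:CR44218, 16058 for lncRNA:CR44133 and 15042 for bab2, while in replicate 3 these 6 ranked between 5429 and 7009. For lncRNA:CR45018 and CG10866, another summit lay 202 and 203 bp away. Where 2 summits are so close, both can match 1 replicate peak, as the corto summits of 297 and 208 did in replicate 4, where the matching peak ranked 4940 for both. Across exon summits, Pearson's r between the replicates on a log2 scale of signal was 0.876 and Spearman's rho was 0.821 (n = 236), against 0.918 and 0.886 over other summits (n = 7524). These are descriptions across summits that share the same 2 libraries and come from a list thresholded on recurrence. The median distance of the matching summit was 5 bp in replicate 3 and 21 bp in replicate 4.

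**Figure D4:**
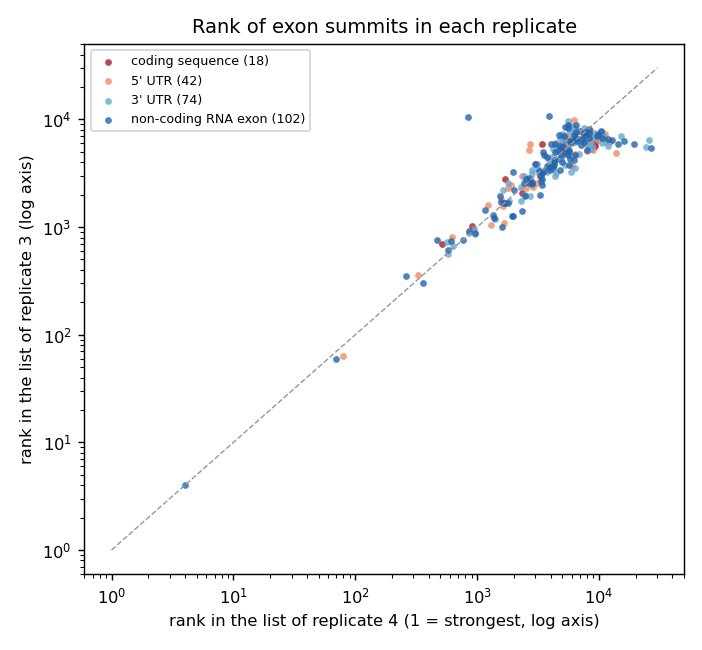
Rank of the matching peak in replicate 4 (horizontal axis) and in replicate 3 (vertical axis), both log axes with 1 as the strongest, for the 236 exon summits with a summit of both replicates within 200 bp, coloured by class. Most points lie along the dashed line of equal ranks, and lncRNA:CR45018, CG10866 and CG9107 lie to the right of it with ranks of 26919, 25796 and 24522 in replicate 4.

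CAGTGTA was found on either strand within 100 bp of 14 exon summits (5.91%, Wilson interval 3.55% to 9.67%), against 8.42% of all summits. By class it was found at 0 of 18 coding summits, 1 of 42 in 5′ UTRs, 6 of 74 in 3′ UTRs and 7 of 103 in non-coding RNA exons. Introns had it at 9.49% of summits, intergenic sequence at 10.6%, both together at 9.83% and promoters at 5.39%. The interval at exon summits included the share of all summits and ended just below that of introns and intergenic sequence together. In windows of the same length 1000 bp to the right it occurred at 5 exon summits (2.11%, 0.904% to 4.84%) and at 1.61% of all summits, and it occurred in 1.8% of 664860 windows of that length laid end to end along the arms. Besides the 7 printed above, the matches were at lncRNA:acal (707), lncRNA:CR44632 (486), lncRNA:CR45232 (419), Cam (244), CG1690 (225), CG46304 (183) and lncRNA:CR32385 (174). The match nearest the summit lay at a median of 79 bp (28 to 96 bp) over the 14, and 11 lay at least 50 bp away. Over all 660 summits with a match the median was 69 bp, and 75.6% lay at least 50 bp away.

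Other short sequences were also found at few exon summits. CACTGAG, which shares 5 letters with the reverse complement of CAGTGTA, was found at 12 exon summits (5.06%, Wilson interval 2.92% to 8.64%), against 6.71% of all summits. AGTGTAG, which overlaps CAGTGTA by 6 letters, was found at 7 (2.95%), against 4.29%. The DM core, searched as ACAATGT or its reverse complement ACATTGT, was found at 10 (4.22%, 2.31% to 7.59%), against 3.99% of all summits, and in 11 of the exon summits' windows 1000 bp to the right (4.64%). It occurred in 3.30% of windows laid along the arms. The exon summits with a DM core were in baz (3702), lncRNA:CR45048 (1093), lncRNA:CR43301 (783), CG4004 (629), the overlapping genes CG13510, CG13511 and CG42565 (370), lncRNA:CR31044 (326), drn (227), lncRNA:CR44983 (210), scrib (207) and CG3168 (193). A match describes letters and is not a measured site.

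GC content was highest at coding summits. Its median within 100 bp was 50% at coding summits (order-statistic 95% interval 45.8% to 55.7%), 40.8% in 5′ UTRs, 35.3% in 3′ UTRs and 32.8% in non-coding RNA exons, against 32.8% at intron and intergenic summits and 33.3% at promoter summits. Bases of the same classes beyond promoters had a GC content of 53.4% in coding sequence, 43.2% in 5′ UTRs, 35.2% in 3′ UTRs and 42.3% in non-coding RNA exons, against 39.7% in introns, 40.7% in intergenic sequence and 42.7% in promoters. Summits in non-coding RNA exons thus lay in sequence lower in GC than their class as a whole, as those in introns did, while the 3′ UTR summits had the GC content of 3′ UTRs. GC content was above 50% at 22 exon summits, of which 9 were coding, 6 in 5′ UTRs, 3 in 3′ UTRs and 4 in non-coding RNA exons. The highest were snRNA:7SKa (66.7%), Pde1c and Snx27 (64.2% each) and Sgs3 (61.2%). Among coding summits the lowest were CG5895 (34.3%) and bif (34.8%).

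**Figure D5:**
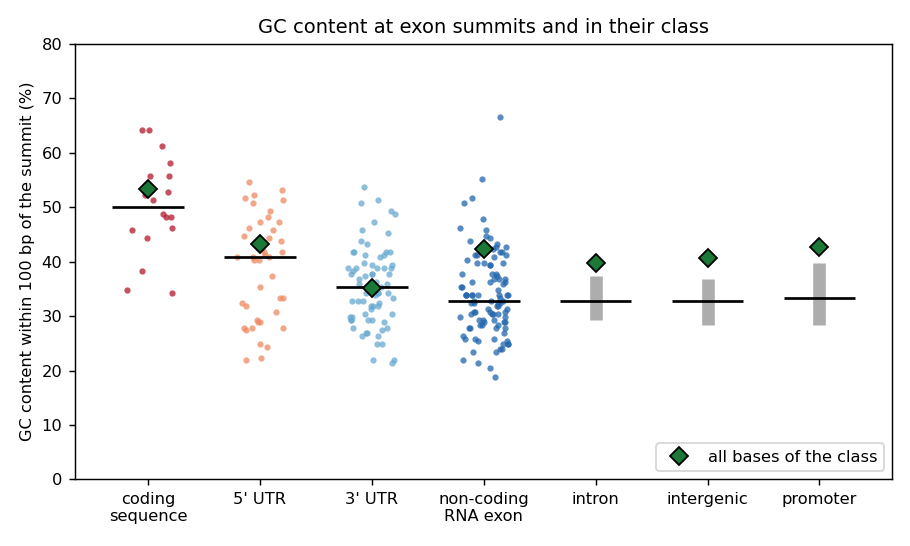
GC content in percent within 100 bp of every exon summit by class (points, with a black line at the median) and of intron, intergenic and promoter summits (grey bars for the interquartile range, black lines for the median), with green diamonds for all bases of each class. Coding summits centre on 50%, above the other exon classes and the 32.8% of intron summits.

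Genes of developmental pathways were counted in short lists, beside a share of 0.925% of all protein-coding genes with an exon summit. The ecdysone and nuclear receptor list held 2 of 17 (11.8%), EcR and Hr4. Both are long genes, of 81215 and 66017 bp, which held 8 and 11 summits of the thresholded list in all. The EcR exon summit, at 170, was near the lowest signal value of that list (169). The part of gene length in this share was not tested. The Dpp and BMP list held 1 of 14 (sog), and neuronal RNA-binding protein genes 1 of 14 (ps). No exon summit was found in the 17 annotated genes of the Notch list, the 14 of the EGF receptor list, the 17 of the Wnt and Hedgehog list, 8 Hox genes, 14 gap and pair-rule genes, 18 neurogenic transcription factor genes, 10 glial genes, 20 chromatin and Polycomb group genes or the 4 DM-domain genes. The lists do not cover their pathways in full, and Raf, cic and dos, which act in receptor tyrosine kinase signalling and held summits described above, are in none of them. On a list of 10 long non-coding RNA genes, 3 held one (lncRNA:Hsromega, lncRNA:Vinr and lncRNA:CR31044), and lncRNA:acal and lncRNA:Irar were not on it. The share over all non-coding RNA genes was 2.36%, including genes too short to hold such a summit. No list was tested, and counts of 0 to 3 genes from lists this short cannot be read as a low or a high share.

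The edge of the rule cut through a continuous distribution. Exon summits 501 to 550 bp from a start numbered 16, with signal values of 184 to 8193 and a median of 493. Exon summits 451 to 500 bp from one, which counted as promoter, numbered 12, with values of 204 to 3639 and a median of 425. Some of the counted peaks also reached toward a promoter. In 48 of 237 the peak extended to within 500 bp of a start, and in 0 did it cover one. The 0 was nearly fixed by the rule of 500 bp, as the median peak width was 424 bp and the widest was 930 bp. Among the pooled peaks below the threshold, which were not part of the list, 1020 of 18439 beyond promoters had an exon summit (5.53%), against 237 of 5556 in the list itself (4.27%). Coding sequence held 248 of all 22162 pooled peaks below the threshold (1.12%), 5′ UTRs 168 (0.758%), 3′ UTRs 307 (1.39%) and non-coding RNA exons 291 (1.31%). In the list these shares were 0.230%, 0.536%, 0.944% and 1.31%.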

How the data were processed

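ChIP-seq peaks were taken from 4 lists that the authors deposited in dm6 (release 6) coordinates, 1 of peaks thresholded on the irreproducible discovery rate (IDR, how well ranks recur between replicates) and relaxed lists of 30000 peaks for each replicate and for both pooled. The age of 6 to 16 hours is from the source name in the labels, since their age entry holds a value that cannot be an embryo's age. Per the labels, the antibody was against GFP, while an antibody entry names dmrt99B. The sources used here name no aligner and no peak caller. The deposited signal value is a score of unstated scale, used only to describe and rank peaks within a list, and the deposited −log10 q values were not used. The deposited positions gave each summit as the peak start plus the summit offset. Summits were placed on the Ensembl release 115 annotation and the RefSeq release 6 genome, and windows reached 100 bp to either side. Every base was given a class in the same order as summits. Shares have 95% Wilson intervals, medians order-statistic intervals and densities exact Poisson intervals. With 1 group there was no test, and p-values were not computed. Whether the replicates came from separate embryo collections beyond the label of biological replicates is not stated. The class lookup was checked at random genome positions, and the motif search on motifs planted in random sequence. Summit matching was checked on replicate 3 summits against their own list, and the density calculation had no such check. The naming rule took all coding and 5′ UTR hosts, the 15 strongest summits of the other classes with values and their other hosts by name, genes with at least 2 exon summits and members of the gene lists. Other summits with a value were named after their values were seen. The members, lists and motifs were chosen with earlier results of these data known. Alternatives were other distances, windows and start definitions, the 3919 strongest summits and each replicate left out. Intervals were computed with scipy 1.17.1 and numpy 2.4.6, tables with pandas 2.3.3 and plots with matplotlib 3.10.9, all under Python 3.11.15.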

Additional observations from a re-analysis of the deposited data

How the results depend on the processing

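No paired analysis was possible because the series held 1 group. Of 78 alternative values over 12 settings and 10 results, 56 stayed close to the reported value, meaning within 1.5 times a count or within the 95% interval of a median or share. With promoters defined by 250 bp, exon summits numbered 315, of which 139 were in non-coding RNA exons and 71 in 5′ UTRs, and the last of these counts passed 1.5 times. With 1000 bp, exon summits numbered 144, of which 10 were coding, 14 in 5′ UTRs and 58 in non-coding RNA exons, and 30.6% were intronic in another transcript. In the 3919 strongest summits, a smaller set by construction, the numbers were 97 in all and 6, 14, 30 and 47 by class, with a median signal value of 569 and 100% in both replicates. With a replicate left out, exon summits numbered 212 to 243. By class these were coding 11 to 22, 5′ UTR 45 in both cases, 3′ UTR 64 to 75 and non-coding RNA 92 to 101. They came from the other replicate's own list, so each matched that replicate by construction. The replicate left out had a summit within 200 bp of 94.8% to 97.5% of them. The signal value was not recomputed there because its scale differs between lists. Windows of 50 bp gave CAGTGTA at 1.27% and a GC content of 33.7%, and windows of 200 bp gave 12.7% and 38.9%. A summit of both replicates lay within 50 bp of 79.7% and within 500 bp of 100%. Apart from the list size and window length, the cause was not tested. Depth is unknown, so what depth limits cannot be stated.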

Other observations

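Several non-coding RNA hosts hold microRNA genes, a pattern noticed after the values were seen. Of the 93 summits in long non-coding and antisense RNA exons, 19 lay in 10 RNA genes that hold a microRNA gene on the same strand. These were 10 of 77 host RNA genes (13.0%), against 37 of all 3001 RNA genes of these kinds (1.23%). RNA genes that hold a microRNA are longer, with a median of 6436 bp, against 601 bp for those that hold none, and the 77 hosts had a median of 2067 bp. The part of length in this share was not tested. Beside lncRNA:CR43334 (mir-ban) the hosts were lncRNA:CR45911, which holds mir-2c, mir-13a and mir-13b-1 (signal value 805), lncRNA:CR43459 with mir-277 and mir-34 (665), lncRNA:CR45345 with mir-375 (490), lncRNA:Hsromega with mir-4951 (421) and lncRNA:CR31044 with mir-279 and mir-996, which repress an olfactory neuron fate (326 and 240). The weaker ones were in lncRNA:CR46004 with mir-276b (228), lncRNA:CR43650 with mir-8 (216, 195 and 185), lncRNA:CR46006 with mir-276a (204 and 183) and lncRNA:CR43626 with mir-282 (170).

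The letters TT stood directly before CAGTGTA at 6 of the 14 exon summits with a match (42.9%, Wilson interval 21.4% to 67.4%). Over the 683 matches at other summits the share was 15.2% (12.7% to 18.1%), and over 12561 matches along the arms it was 11.4% (10.8% to 12.0%). Of the 6, 5 are among the 7 printed sequences and 1 among the 7 others. This was seen in the printed sequences first and has no independent check.

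The summit in lncRNA:CR45793 (signal value 350) matched a peak ranked 847 in replicate 4 and one ranked 10542 in replicate 3. The replicate 4 summit lay 185 bp away, and another summit of the thresholded list lay 224 bp away.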
